A study of Homo sapiens with 36 samples.

Results

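JUNB was depleted with small interfering RNA (siRNA) in breast epithelial cells whose Src oncoprotein was not switched on, and the messenger RNAs were counted by sequencing. Of the 36 libraries in the series, 4 make up this comparison, namely 2 libraries with siRNA against JUNB (JUNBi_ETH) and 2 with control siRNA (Ctrli_ETH). They were chosen by their sample labels, not by any measured value. All 4 come from MCF-10A ER-Src, a non-transformed human mammary epithelial line with a fusion of v-Src and the ligand-binding domain of the estrogen receptor, and all 4 received ethanol (ETH), the vehicle for tamoxifen (TAM), which switches the fusion protein on. The cells grew with EGF, hydrocortisone, cholera toxin and insulin in every group, and the inducing treatment of the TAM groups combined tamoxifen with AZD0530, a Src inhibitor. The siRNAs were commercial pools delivered by lipid transfection, so several sequences act on each target at once, and the fusion is present in the controls as well. The labels do not say that the 2 libraries of a group came from separate cultures, and p-values therefore measure only the spread between these samples, which may be technical.

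JUNB is a subunit of AP-1, a family of dimeric transcription factors in which a Jun protein pairs with another Jun protein, a Fos protein or a member of the ATF group through a leucine zipper. AP-1 binds sites of the form TGANTCA, in which the middle base varies, and is induced by growth factor signalling through the MAP kinases. In epithelial cells it acts on genes for proliferation, differentiation, inflammation and the extracellular matrix, and JUNB has been described both as a brake and as a driver of the cell cycle.

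The 4 libraries held between 10848740 and 12696365 estimated reads, within the range of 6419720 to 19161700 over the 20 ER-Src libraries. The 2 knockdown libraries stood further apart than the controls. Among 9913 genes whose normalized counts averaged 100 or more, 590 differed at least 2-fold between the JUNBi_ETH libraries, against 35 between the Ctrli_ETH libraries, and the standard deviation of the log2 ratio was 0.687 against 0.239. The ratio varied with the GC content of the transcripts. In the fifth of genes with the lowest GC content the median log2 ratio of library 1 to library 2 was 0.51 for JUNBi_ETH and 0.12 for Ctrli_ETH, and in the fifth with the highest it was -0.74 and -0.14. RSEM reported both the length and the effective length of a gene. Their difference was 49 bases in the JUNBi and STAT3i libraries and 49.49 in the Ctrli_ETH libraries. When JUNBi_ETH is compared with Ctrli_ETH, this property and the knockdown therefore cannot be told apart. Values of single libraries are therefore given first, and "library 1" and "library 2" name the replicates.

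**Figure D1:**
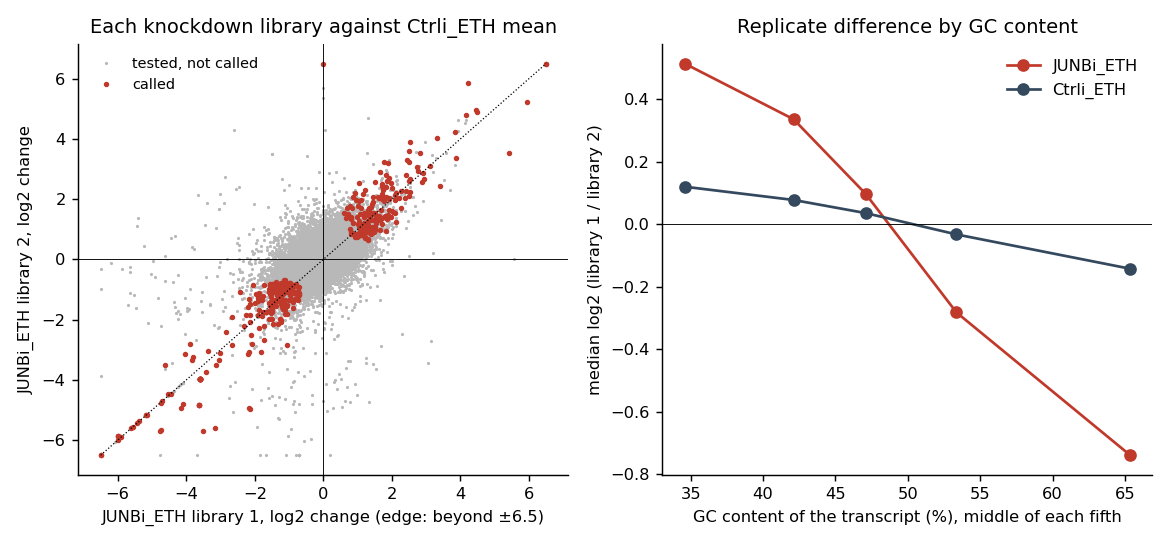
Left, log2 change of tested genes with a symbol in JUNBi_ETH library 1 (x axis) and library 2 (y axis) from the mean of the Ctrli_ETH libraries, with called genes in red, and changes beyond 6.5 drawn at the edge. Right, median log2 ratio of library 1 to library 2 in 5 equal groups of genes ordered by GC content (x axis, percent), for JUNBi_ETH (red) and Ctrli_ETH (dark): the red line runs from 0.51 to -0.74 and the dark line from 0.12 to -0.14.

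JUNB itself (ENSG00000171223.5, chr19:12791486-12793315, plus strand, GRCh38) had 543 and 696 normalized counts with control siRNA and 150.1 and 406 with JUNB siRNA. Both knockdown libraries lay below both controls, but library 1 fell further than library 2. The change was -2.04 on the log2 scale in library 1 and -0.61 in library 2. Together they gave a log2 fold change of -1.16 (SE 0.39), which did not pass the threshold of 0.01 (DESeq2 adjusted p = 0.0643, edgeR adjusted p = 0.271). Without library 2 it was -2.03 (DESeq2 adjusted p = 1.69e-10), and without library 1 it was -0.61 (DESeq2 adjusted p = 0.148). In a bulk sample, fewer cells that express a gene and less of its RNA per cell cannot be told apart. Per transcript length, JUNB stood at 12.5 ± 0.742 TPM with control siRNA and 6.23 ± 3.29 TPM with JUNB siRNA (mean ± SD, n = 2). JUNB transcripts have a GC content of 64.9%, in the fifth of genes with the highest GC content. With a GC term for each library, added after the data were seen, the normalized counts were 583 and 634 against 219 and 292, and the log2 fold change was -1.24 (SE 0.21, DESeq2 adjusted p = 1.68e-07). Against the 6 libraries with siRNA to YAP, TAZ or STAT3 under ETH, in place of Ctrli, it was -1.43 (DESeq2 adjusted p = 0.00115). These 6 libraries had 356 to 1107 normalized counts on a common scale, where the JUNBi_ETH libraries had 153 and 413, so library 2 lay above the lowest of them, a STAT3i library. Exons of HOOK2 overlap JUNB on the other strand, and reads of the pair cannot be told apart unless the counting used strand.

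**Figure D2:**
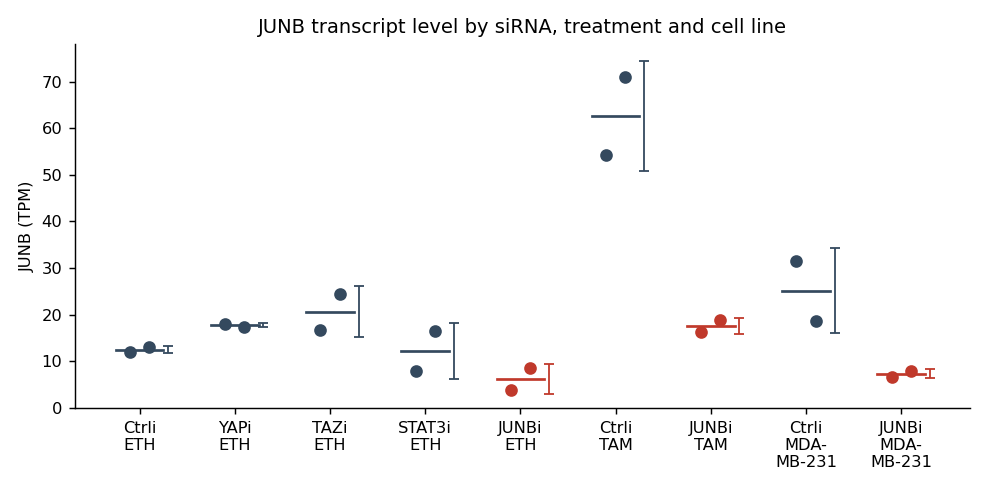
JUNB level in TPM, estimated transcripts scaled for gene length and depth (y axis from 0), in the ETH groups, the control and JUNB siRNA groups under TAM, and those in MDA-MB-231 cells. Points are libraries, horizontal lines means and error bars the SD (n = 2): the JUNBi_ETH libraries sit at 3.9 and 8.55, below 11.9 and 13.0 in Ctrli_ETH.

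The same siRNA lowered JUNB under TAM by a log2 fold change of -2.03 (DESeq2 adjusted p = 5.9e-07) and in MDA-MB-231, a triple-negative breast cancer line, by -2.04 (DESeq2 adjusted p = 2.12e-08). The test of the difference between TAM and ETH gave -0.90 (SE 0.77), which did not pass.

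FOSL2 rose, and no other AP-1 gene was called. FOSL2 encodes a Fos protein that dimerizes with Jun proteins. It had 875 and 873 normalized counts with control siRNA and 1529 and 2209.9 with JUNB siRNA. Both knockdown libraries were higher, and the gene rose with a log2 fold change of 1.10 (SE 0.26, DESeq2 adjusted p = 0.00139). The YAPi and TAZi libraries, at 1487 to 1860.3 on the common scale, overlapped JUNBi_ETH library 1 at 1554. Of the 11 Jun, Fos and ATF, BATF or JDP genes tested, FOSL2 was the 1 that was called. JUN, the founding member of the family, had 262 and 329 normalized counts against 404 and 741. The groups did not overlap, but the log2 fold change of 0.95 (SE 0.34) did not pass. FOS, the partner induced fastest by growth factors, had 249.6 and 289 against 107 and 157, and its log2 fold change of -1.03 (SE 0.36) did not pass either. With the GC term both passed, JUN at 1.03 (DESeq2 adjusted p = 7.7e-05) and FOS at -0.94 (DESeq2 adjusted p = 0.0043). JUND had 253 and 378 against 261 and 953, so that its higher mean came from library 2. FOSL1, ATF2, ATF3, ATF7, BATF3 and JDP2 were not called, with log2 fold changes from -0.88 to 0.80. BATF, BATF2 and FOSB had at most 8.6 normalized counts and no adjusted p.

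Across all genes, 178 were called higher (1.17% of 15234 tested) and 242 lower (1.59%) at an adjusted p under 0.01. In 419 of the 420 called genes, both knockdown libraries lay on the same side of both controls. A call with 2 libraries per group selects for this, so it is not separate evidence that the knockdown libraries agree. With edgeR's quasi-likelihood test 1 gene, a U2 small nuclear RNA gene, passed, and 2661 of 14895 had an unadjusted p under 0.05. With the GC term, edgeR called 1023 genes, of which 366 were among the 420, and DESeq2 called 1547 (11% of those tested), of which 411 were among the 420. Of these 1547 genes, 621 were higher (4.41% of 14072 tested) and 926 lower (6.58%). When Ctrli_ETH library 1 or 2 was left out, 71 or 69 genes were called, and without JUNBi_ETH library 1 or 2, 946 or 1373.

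The calls were 309 protein-coding genes, 24 long noncoding RNAs and 21 processed pseudogenes, with 20 ribosomal RNA genes that were all lower. Ribosomal and small nuclear RNA genes exist in many near-identical copies among which the quantification splits reads, and their values are uncertain. The 5.8S gene RNA5-8SN1 had 29016 and 40912 normalized counts in the controls and 2851 and 1223 after JUNB siRNA. The other siRNA libraries under ETH ran from 59.4 to 28459.9, and against them the log2 fold change was 0.01. SENP3-EIF4A1, a readthrough gene that shares its exons with SENP3 and EIF4A1, had 789 and 626 against 38.9 and 22.0. In the YAPi and TAZi libraries it stood between 17.3 and 42.0 on the common scale, near the JUNBi_ETH libraries, and in the STAT3i libraries at 349.7 and 15.4. Another readthrough gene, RPL36A-HNRNPH2, was at 0 in both knockdown libraries and at 113 and 133 in the controls, and it was also at 0 in the YAPi and TAZi libraries. One annotated U2 gene had 0 in both controls and 21853 and 31434 in the knockdown libraries, while RNU2-1, another copy, went from 4051 and 3851 to 2416 and 0.956, so that it was nearly lost in library 2 alone.

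Each called gene was also set against the other 8 ETH libraries. Both JUNBi_ETH libraries lay above or below all 8 for 193 of the 420 called genes and for 167 of the 309 protein-coding ones. The share of all tested genes was 12.5%. The 8 include the 2 Ctrli_ETH libraries used for the calls, so a higher share among called genes is built in by the calling. Against the mean of the 6 YAPi, TAZi and STAT3i libraries, 255 genes were higher (1.78%) and 240 lower (1.68%), and 212 of the 420 were called in the same direction. Against STAT3i_ETH alone, which shares the 49-base difference of JUNBi_ETH, 259 genes were called (1.7%).

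Of the protein-coding genes that rose, the 16 with the largest smaller single-library change are given here, chosen after the values were seen. Genes that have a hyphen in their symbol, as readthrough genes do, were left out. Only called genes whose groups did not overlap were eligible, so the agreement of both knockdown libraries follows from the choice. KRT13, a keratin of stratified mucosal epithelium, had 5.05 and 12.6 normalized counts with control siRNA and 216 and 305 with JUNB siRNA. Both knockdown libraries were far above both controls, and the other siRNA libraries stayed between 3.08 and 15.1. The log2 fold change was 4.91 (SE 0.55, DESeq2 adjusted p = 9.38e-17). CYP4B1, a cytochrome P450 of the fatty acid hydroxylase family, had 42.4 and 61.8 against 763 and 995. This was a log2 fold change of 4.08 (SE 0.33), and the next highest ETH library had 107. ELF3, an ETS transcription factor of epithelial differentiation, had 10.1 and 13.7 against 127 and 209. The other siRNA libraries reached 82.1, in a YAPi library, below both JUNBi_ETH libraries.

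ANKRD1, a muscle ankyrin repeat protein used as a readout of YAP and TAZ activity, had 63.7 and 84.7 normalized counts in the controls and 1100.3 and 776 after JUNB siRNA. Library 1 was higher than library 2, and the gene rose with a log2 fold change of 3.66 (SE 0.32, DESeq2 adjusted p = 1.19e-27). CLIC3, a chloride channel family protein, had 18.2 and 21.8 against 119 and 314. IGFL1, a secreted protein of the insulin-like growth factor family, had 10.1 and 10.3 against 78.6 and 128. MAP2, which binds microtubules, had 71.8 and 53.8 against 464 and 378. The log2 fold changes of these 3 genes were 3.44, 3.34 and 2.74. IP6K3, TMEM125, PCDHB14 and HOGA1 rose by 2.64 to 2.98 on the log2 scale. SAA2, an acute phase apolipoprotein, had 1407 and 928 against 5123 and 5403, for a log2 fold change of 2.17. Regulators of cell death also rose, the BH3-only protein HRK and the kinase DAPK1, with log2 fold changes of 2.38 and 2.30. The angiopoietin ANGPT1 rose from 61.6 and 66.4 to 376 and 304, but on the common scale a TAZi library had 336, above JUNBi_ETH library 2 at 309. The selenium carrier SELENOP rose from 101 and 131 to 658 and 507, and a YAPi library reached 389.

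Of the protein-coding genes that fell, 15 of the 16 chosen in the same way are given, because most genes named by the original rule were ribosomal or readthrough genes. INSC, an adaptor that orients the mitotic spindle, had 171 and 160.3 normalized counts in the controls and 22.1 and 30.6 after JUNB siRNA. All 8 other ETH libraries were above both knockdown libraries, and the log2 fold change was -2.66 (SE 0.47, DESeq2 adjusted p = 2.24e-06). CDCA5, which protects sister chromatid cohesion, had 594 and 617 against 161 and 166. It fell by a log2 fold change of -1.89, and the other siRNA libraries stood at 444 to 566. ETV4, an ETS factor downstream of MAP kinase signalling, had 254 and 255 against 57.4 and 70.7. XDH, xanthine dehydrogenase, had 851 and 809 against 241 and 227, a log2 fold change of -1.83. IL1B, the proinflammatory cytokine, had 557 and 359.6 against 134 and 135. The 2 controls differed from each other, but both were above both knockdown libraries. The lipid transfer protein PCTP, the arginase ARG2, the formin FHOD3, the integrin ITGA10 and the Hippo pathway factor TEAD2, also below all 8 other ETH libraries, fell with log2 fold changes from -1.56 to -2.05.

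Some falls were not outside the other siRNAs. HNRNPA1L3, a relative of the splicing factor HNRNPA1 with which it can share reads, had 3151 and 4043 against 852 and 516, a log2 fold change of -2.39, while YAPi and TAZi libraries had at most 688 on the common scale. FAM72C, LAPTM5, HMGN5 and FAM166A also fell from Ctrli_ETH with such overlap. Against the other siRNAs the log2 fold changes of these 5 genes were -0.14 to -0.85 and none was called.

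**Figure D3:**
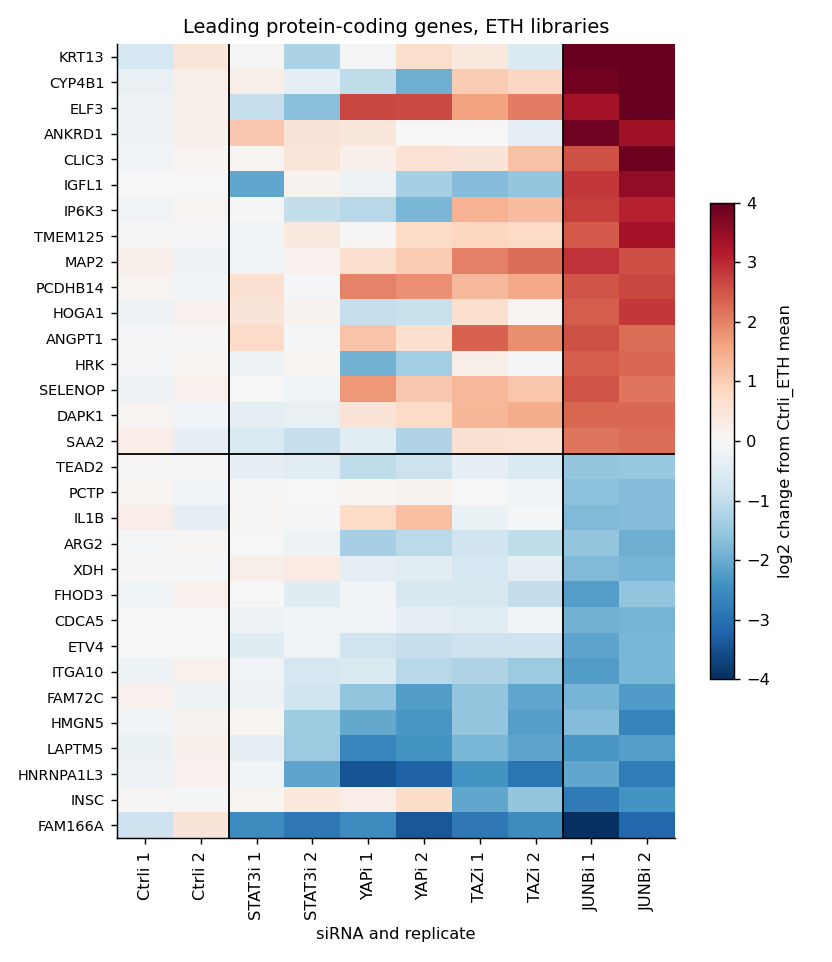
Log2 change from the Ctrli_ETH mean (color, from -4 to 4) of the 16 protein-coding genes with the largest smaller single-library rise (above the line) and 15 of the 16 with the largest fall (below), without symbols that hold a hyphen, in the 10 ETH libraries (columns, by siRNA and replicate). KRT13 and CYP4B1 are darkest in the JUNBi columns, whereas HNRNPA1L3 and LAPTM5 are blue also in YAPi and TAZi columns.

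The AP-1 motif was searched as TGANTCA with any base at N, a pattern that reads the same on both strands. It lay within 250 bases before the start of 1801 of 27305 RefSeq promoters (6.6%) and of 388 of 10057 tested protein-coding genes (3.86%). Among these genes it lay before 6 of 109 called higher (5.5%) and 9 of 133 called lower (6.77%). Among the leading genes it was found in the windows of ANKRD1 and INSC, which moved in opposite directions and are printed to show where it sits, in capitals, 195 and 67 bases before the start. The windows are chr10:90921088-90921337 on the minus strand and chr11:15112174-15112423 on the plus strand of GRCh38.p14.
ANKRD1: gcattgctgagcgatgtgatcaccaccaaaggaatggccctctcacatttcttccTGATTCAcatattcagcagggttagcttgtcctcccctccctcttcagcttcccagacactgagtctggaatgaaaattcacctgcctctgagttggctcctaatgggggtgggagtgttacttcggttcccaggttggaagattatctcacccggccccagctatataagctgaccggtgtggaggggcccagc
INSC: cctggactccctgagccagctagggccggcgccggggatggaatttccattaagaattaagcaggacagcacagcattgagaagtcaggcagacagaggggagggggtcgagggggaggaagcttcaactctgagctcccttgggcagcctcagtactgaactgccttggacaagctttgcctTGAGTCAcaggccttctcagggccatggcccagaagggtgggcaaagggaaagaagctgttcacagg

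Of 20 DNA replication genes, 6 fell and none rose, with a median log2 fold change of -0.81, where the median of all tested genes was 0.02. Among all tested genes, 1.59% were called lower and 1.17% higher. MCM7, a subunit of the replicative helicase, had 3743 and 3551 normalized counts against 1488 and 1796, a log2 fold change of -1.15. CDC45, which activates that helicase, had 616 and 604 against 291 and 287, and TYMS, which makes thymidylate, 782 and 790.2 against 372 and 414. All members of this list, and of the mitosis and histone lists, had a log2 fold change below 0, where 7376 of all 15234 tested genes did. Of 20 mitosis genes, 7 fell and none rose (median -0.88). MKI67, the proliferation antigen, had 4986 and 4545 against 2172 and 1714, a log2 fold change of -1.29. The kinase AURKB had 634 and 601 against 224 and 303, and cyclin CCNB1 had 3620.2 and 3189 against 1847 and 1568. Of 14 replication-dependent histone genes, 8 fell (median -0.98), led by the linker histone H1-4 with 4799 and 4779 against 1604 and 2278.

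Part of the other siRNA libraries were also low. Against YAPi, TAZi and STAT3i, 7 replication genes, 1 mitosis gene and 6 histone genes were called lower, with medians of -0.52, -0.45 and -0.60. That comparison called 1.68% of all genes tested lower. MKI67 stood at 2363 and 1681 in the YAPi libraries, at 3421 and 2737 in the TAZi libraries and at 4041 and 3452 in the STAT3i libraries, on a common scale where the JUNBi_ETH libraries had 2207 and 1743. With the GC term, 18 replication, 19 mitosis and 11 histone genes were called lower, where it called 926 of all 14072 genes tested lower (6.58%). Under edgeR without that term none of these genes was called. Of 14 G1 cyclins and CDK inhibitors tested, 1 rose and none fell (median 0.13). This was the inhibitor CDKN1C, which went from 80.9 and 144 to 419 and 1053.

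A second motif was examined after these results were seen. The letters CCAAT, on either strand, occurred in the 250-base windows of 77 of 133 protein-coding genes called lower (57.9%) and of 35 of 109 called higher (32.1%), against 35.6% of 10057 tested and 33% of all promoters. Of the gene lists, chosen with earlier results of these data known, 12 of 15 mitosis windows and 14 of 18 replication windows held it. Members of these lists are among the genes called lower, so these counts are not separate evidence. A part of the motif in the falls was not tested. The CCNB1 window (chr5:69166900-69167149, plus strand) is printed with its 2 matches in capitals, 87 and 55 bases before the start.
CCNB1: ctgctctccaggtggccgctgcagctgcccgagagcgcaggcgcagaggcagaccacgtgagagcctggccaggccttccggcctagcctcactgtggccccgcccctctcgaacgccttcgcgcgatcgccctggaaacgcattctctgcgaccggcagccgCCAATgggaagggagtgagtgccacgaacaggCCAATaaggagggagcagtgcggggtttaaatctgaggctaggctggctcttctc

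Of 18 immediate early and MAPK feedback genes tested, 3 fell and none rose (median -0.34), and edgeR called none of them. DESeq2 called 1.59% of all tested genes lower and 1.17% higher. The phosphatase DUSP6, which switches off ERK, had 698 and 752 normalized counts against 262 and 264, a log2 fold change of -1.46. Both knockdown libraries were below all 8 other ETH libraries. IER3 had 710.5 and 610.4 against 230.5 and 362. ETV4 was the third. EGR1, DUSP4 and SPRY4 had log2 fold changes of -1.53, -0.87 and -0.66 that did not pass. Of 12 EGF receptor and ligand genes, NRG1, the neuregulin ligand of ERBB3, rose from 126 and 93.9 to 283 and 277.

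Epithelial junction and keratin genes moved in mixed ways. Of 17 desmosome and tight junction genes tested, 6 rose and none fell (median 0.72). Of all tested genes, 1.17% were called higher and 1.59% lower. DSP, the desmosomal plaque protein, had 5388 and 5564 against 11306 and 9995, and the tight junction proteins TJP3 and CGN had log2 fold changes of 2.20 and 2.63. OCLN, PERP and DSC2 completed the 6. On the common scale a YAPi library had 11291 for DSP, above JUNBi_ETH library 2 at 10166. For PERP it had 13434, above both JUNBi_ETH libraries at 6918 and 5839.5. Against the other siRNAs 3 of the list were called higher, where 1.78% of all genes tested were. CDH1, E-cadherin, rose from 692 and 679 to 1426 and 1418, while YAPi and TAZi libraries had 1056 to 1501 on the common scale. Of 15 keratins, 4 rose and 2 fell (median 0.83, with 0.15 in library 1 and 1.25 in library 2, and -0.07 against the other siRNAs). KRT15, with 944 and 1964 against 4495 and 6019, and KRT17, with 11659.9 and 12649 against 19748 and 32212, rose along with KRT8 and KRT13, and for both TAZi libraries overlapped JUNBi_ETH. KRT14, a basal keratin, had 4968 and 6398 against 1461 and 2545, a log2 fold change of -1.50, and KRT81 fell with -1.04. For both, YAPi libraries overlapped JUNBi_ETH on the common scale, KRT81 with 24827 and 29033 against 26370 and 40025. Against the other siRNAs KRT14 was called lower with -1.49, and KRT81, at -0.39, was not called. EHF, an ETS factor like ELF3, rose with 1.78, and on the common scale the YAPi libraries, at 565 and 439, overlapped JUNBi_ETH at 509 and 426. Of 9 cornified envelope and S100 genes tested, S100A8 and S100A9, the subunits of calprotectin, fell with -1.18 and -1.63, while the YAPi libraries reached 5816 and 10764, and STAT3i libraries lay as low as JUNBi_ETH.

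Of 16 STAT3 and acute phase genes, 5 rose and none fell (median 0.73, with 0.46 in library 1 and 0.83 in library 2). The share of all tested genes called higher was 1.17%. SAA1 had 5810.2 and 4308 against 14683 and 13552, LIFR, the receptor of leukemia inhibitory factor, 226 and 266 against 978 and 656, and SERPINA3, a protease inhibitor, 359.8 and 391 against 938 and 1225. All 3 lay above the other 8 ETH libraries. C3 and SAA2 were the others. Of 17 interferon-stimulated genes, 4 rose (median 0.99, with 0.78 in library 1 and 1.25 in library 2), and the libraries differed. IFI6 had 61.6 and 56.1 against 122 and 349, and IFI27 17.2 and 43.5 against 98.0 and 235, so that library 2 was higher in both. IFIT2 and IFIT3 were higher in library 1, with 251 and 197 and with 318 and 299. ISG15, a ubiquitin-like interferon response protein, had 61.6 and 84.7 against 60.0 and 287, and was not called. BIRC3, an NF-kB target that inhibits apoptosis, rose from 1987 and 1467 to 6248 and 4386.

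Where 1.17% of all tested genes were called higher, 4 of 22 YAP/TAZ target genes rose and none fell (median 0.40). Besides ANKRD1 these were TGFB2, a TGF-beta ligand, with 114 and 115 against 556 and 379, IGFBP3, which binds insulin-like growth factors, with 158 and 156 against 514 and 634, and CRIM1, with 3189 and 3140.2 against 5544 and 5977. CCN1 and CCN2, the most used targets, had log2 fold changes of 0.40 and 0.29 that did not pass. In the TGF-beta list LTBP1, which stores the latent ligand in the matrix, fell from 2519.6 and 2716 to 1383 and 1382. Of the matrix protease list, the inhibitors TIMP2 and TIMP3 rose with log2 fold changes of 1.43 and 1.14, and TIMP1 fell with -1.17. COL8A1 was the 1 collagen called, with 1.11. Of 16 glycolysis and hypoxia response genes tested, NDRG1 and ADM rose with 1.85 and 1.79 and none fell, while 11 had a log2 fold change below 0 (median -0.26). None of 18 cholesterol and fatty acid synthesis genes, 16 hemidesmosome and integrin genes and 13 NRF2 genes tested was called by DESeq2. With the GC term, which called 11% of all genes tested, 1 was higher and 4 lower in the first list, 2 and 7 in the second and 1 and 2 in the third. Of 13 mitochondrial messenger RNAs, MT-ND5 was called lower with -0.90 and the median was -0.71. With the GC term 2 were called higher and 7 lower. Without that term, 11 of the 13 had a log2 fold change below 0. Their summed TPM is another measure, scaled by effective length, and does not follow each member. It was 1853 and 1518 TPM in Ctrli_ETH and 2439 and 1673 TPM in JUNBi_ETH.

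**Figure D4:**
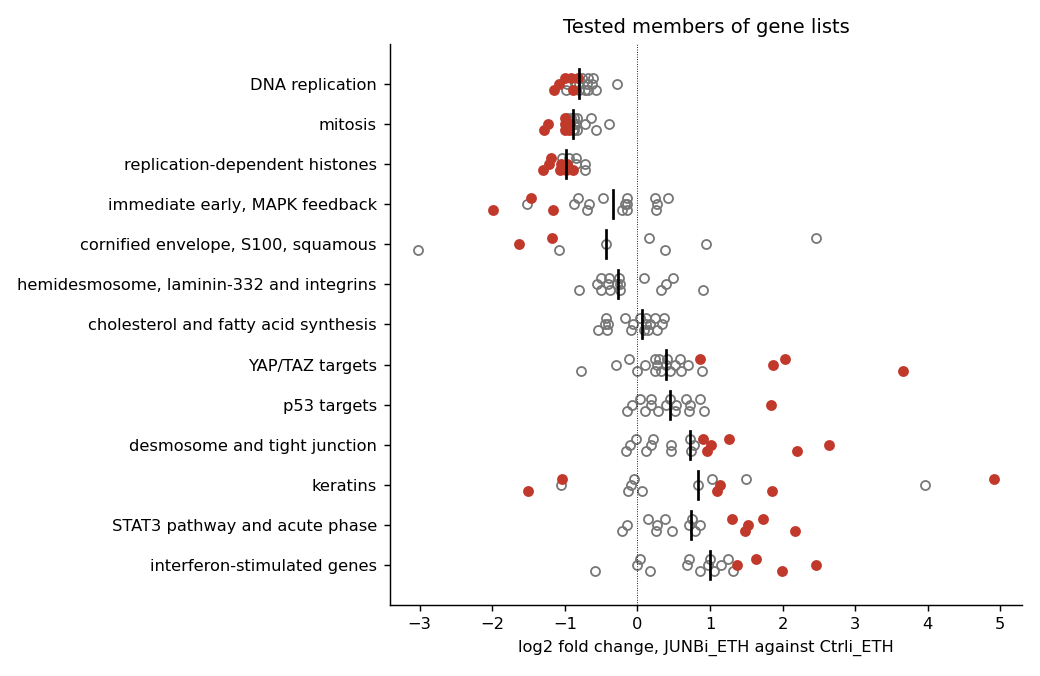
Log2 fold change (x axis) of the tested members of 13 gene lists in JUNBi_ETH against Ctrli_ETH, called members filled and others open, with the median as a vertical bar. DNA replication, mitosis and histone genes lie entirely below 0, and the medians of keratin, acute phase and interferon-stimulated genes lie between 0.73 and 0.99.

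Markers of basal mammary epithelium were present in all 4 libraries, with a summed level of 2377 to 2833 TPM. The luminal markers summed to 327 and 273 TPM with control siRNA and 457 and 428 TPM with JUNB siRNA, so that both knockdown libraries were higher. Of the 6 luminal markers tested, 1, KRT8, rose, none fell, and the median log2 fold change was -0.12. ESR1, whose ligand-binding domain the fusion carries, stood at 115 and 88.1 TPM against 195 and 164 TPM, and its normalized counts were 3938.5 and 3810.2 against 2979.5 and 3319.6, which was not called. PGR was at 0 in all 4 libraries. The part of luminal cells in the results was not tested. Fibroblast markers summed to 36.6 to 61.8 TPM, nearly all of it DCN, with COL1A1 at 0.28 TPM or less. Endothelial, leukocyte and adipocyte markers summed to at most 2.69, 7.51 and 0.17 TPM. KDR, an endothelial growth factor receptor, rose (log2 fold change 2.06) at 1.93 TPM or less, while PECAM1 was at 0.62 TPM or less and CDH5 and VWF were at 0.01 TPM or less.

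The same siRNA under TAM, the inducing treatment, gave 370 genes higher (2.77% of 13375) and 528 lower (3.95%). TMM size factors moved this split to 488 and 478. KRT13, ANKRD1, INSC, DUSP6 and ETV4 had log2 fold changes of 4.38, 3.40, -2.74, -1.56 and -1.77 there, in the same direction as under ETH, where they were 4.91, 3.66, -2.66, -1.46 and -1.99. IL1B fell in both, with -2.50 and -1.77. Under TAM the median was -0.04 for DNA replication with none of 20 called, -0.39 for mitosis with 5 called lower, and -0.59 for histones with 9 of 14 called lower. The difference between the treatments passed for 46 genes (0.287% of 16037), and for none of the replication or mitosis genes. NDRG1, a stress-induced gene, had the opposite direction in each. On a common scale it had 943 and 1021 normalized counts in Ctrli_ETH, 3051 and 4083 in JUNBi_ETH, 5916 and 5297 in Ctrli_TAM and 1837 and 2289 in JUNBi_TAM. KRT15 and DAPK1 rose under ETH and had -0.04 and 0.11 under TAM, with a difference that passed. FOSL2 had -0.04 under TAM, with a difference of -1.17 (SE 0.29, DESeq2 adjusted p = 0.0147) that did not pass. CLIC3, TMEM125, ANGPT1 and FHOD3, called under ETH, had 0.83, 1.28, 0.96 and -0.81 under TAM and were not called. Their differences between the treatments did not pass either. In MDA-MB-231, JUNB siRNA gave 287 called genes (3.99%), among which CDCA5 fell with -1.51, beside -1.89 under ETH. KRT81 also fell in both, with -1.22 in MDA-MB-231. CLIC3 and KRT8, which rose under ETH, were called lower there with -1.36 and -0.68. DUSP6 and ETV4, at -0.07 each, were not called there.

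**Figure D5:**
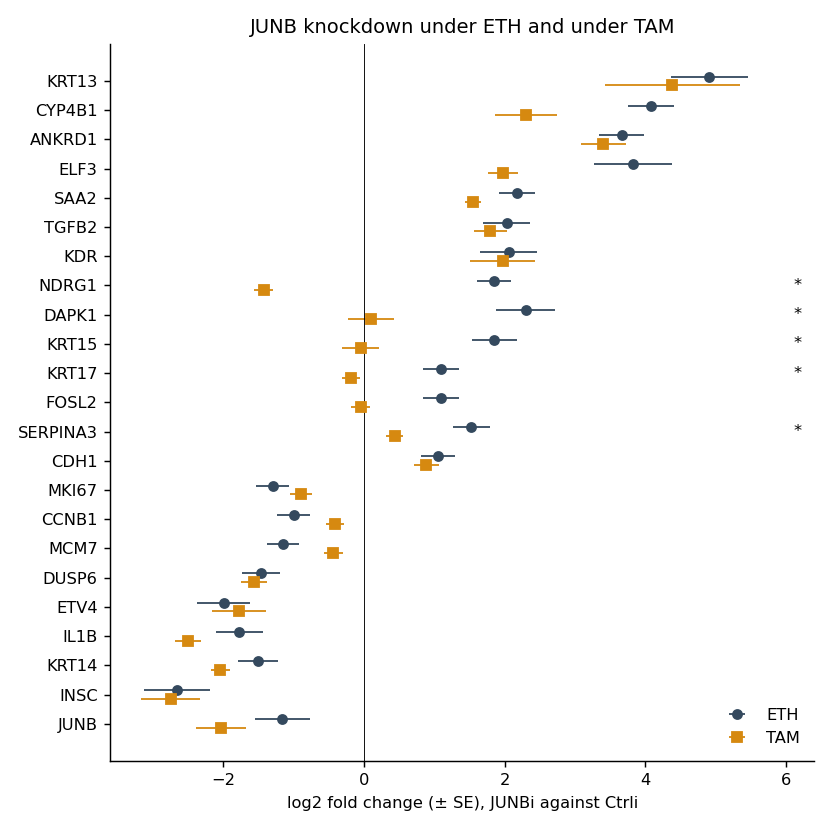
Log2 fold change with its SE (x axis) of named genes after JUNB siRNA under ETH (circles) and TAM (squares), with a star where the difference passed. NDRG1 lies at 1.85 under ETH and -1.42 under TAM, and KRT13 at 4.91 and 4.38.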

How the data were processed

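Libraries from total RNA (TruSeq Ribo Profile kit) were trimmed and aligned with STAR to the GENCODE transcriptome (hg38), and genes were quantified with RSEM, which splits reads that fit several genes. The authors deposited RSEM expected counts, estimated reads that are not normalized, and TPM, which RSEM scaled by effective length. Of 61471 identifiers, 60725 Ensembl genes were kept, and 93.1% of these matched GENCODE 44, which gave symbols and coordinates.

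Expected counts were rounded. JUNBi_ETH was compared with Ctrli_ETH in DESeq2 1.42.0 (R 4.3.3) with default settings, as in the study's methods, at a Benjamini-Hochberg adjusted p under 0.01. Unless edgeR 4.0.16 is named, p-values are DESeq2's. Normalized counts use DESeq2 size factors of the 4 libraries, and the common scale those of all 20 ER-Src libraries. Single-library changes are log2(normalized count + 1) against the control mean. The fits were also run on simulated counts. These had no GC trend and the same spread in both groups, so that run does not bear on either feature of these libraries. TAM, interaction, STAT3i and MDA-MB-231 comparisons used the same test.

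The GC term is a per-library smooth trend (span 0.3, genes with a mean of at least 20) on transcript GC content. It and the comparison with the other siRNAs were added after the data were seen. Named genes were all Jun, Fos and ATF family members, 12 called genes in each direction (mean of at least 50, no overlap between groups, largest smaller single-library change), up to 4 called members per list and direction, and 5 genes per direction that differed most between the JUNBi_ETH libraries (mean of at least 100, log2 ratio within 0.5 between controls). The 16 protein-coding genes in each direction, without genes that have a hyphen in their symbol, were added, and 1 that fell is not reported here. Members and the 37 gene lists, 6 of them cell type markers, were chosen with earlier results of these data known. Promoter windows are RefSeq's. Alternatives tried were another tool, size factors, filter and threshold, length offsets, wider fits, a replicate block and leaving out each library. Numeric, spike-in and phiX identifiers were left out.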

Additional observations from a re-analysis of the deposited data

Results flagged for a closer look

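For 8 of the named genes the effect of JUNB siRNA differed between TAM and ETH in a DESeq2 interaction test (adjusted p under 0.01), while edgeR called no difference and had 1337 genes at an unadjusted p under 0.05. NDRG1 differed by -3.29 on the log2 scale (SE 0.27, adjusted p = 3.38e-29), from 1.85 under ETH to -1.42 under TAM. DAPK1 differed by -2.22, KRT15 by -1.92, KRT17 by -1.30 and SERPINA3 by -1.12, all being higher after JUNB siRNA under ETH. HNRNPA1L3 differed by 1.89, being lower under ETH. The readthrough gene SENP3-EIF4A1 differed by 3.40 and one U2 gene by -17.95, a fitted value against libraries at 0, and both have reads that fit other genes.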

How the results depend on the processing

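The count of 420 genes called by DESeq2 stayed within 1.5 times with TMM size factors, a minimum mean count, effective length offsets, the replicate block (536) and the other siRNAs as reference. It was 751 at an adjusted p under 0.05, 1 with edgeR, 958 with all 5 ETH groups and 1729 with all 10 ER-Src groups in 1 fit, 1547 with the GC term, 785 with the GC term and the block, 1023 with edgeR and the GC term, and 69 to 1373 when 1 library was left out. For STAT3i_ETH (259) it was 0 with edgeR (2147 at an unadjusted p under 0.05), 1044 with the block and 51 to 260 without 1 library. For TAM minus ETH (46) it was 0 with edgeR, 100 with the block and 18 to 487 without 1 library. Under TAM (898) it was 233 to 544 without 1 library. In MDA-MB-231 (287) it was 0 with edgeR (2605 unadjusted) and 14 to 834 without 1 library, and no block was possible there because the groups share no replicate numbers. With 1 library left in an arm, that library is assumed to vary like the other group. The causes of these differences were not tested.

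Replicate numbers under ETH are not stated to mark a batch. Same-numbered libraries deviated together (r = 0.41 across genes, 0.17 with the GC term), and with the block JUNB passed (-1.31, DESeq2 adjusted p = 0.0021).

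Of the log2 fold changes of named genes under the alternatives, 1433 kept direction and call, 320 lost the call, 32 gained it and 18 reversed. Against the other siRNAs these were the 5.8S genes 5_8S_rRNA, RNA5-8SN1, RNA5-8SN2 and RNA5-8SN3 (0.010 each), PERP (-0.082), HSPA5 (0.0044), COX6A1P2 (0.75), NDUFC2-KCTD14 (-0.16), NPIPA9 (-0.082) and BATF2 (1.90). Leaving out 1 library gave JUND -0.26 to 1.59, BATF2 -0.48 to 0.44, NDUFC2-KCTD14 -1.64 to 1.76, ISG15 -0.27 to 1.97 and NPIPA9 -0.89 to 1.01. All 5 lowest values but that of BATF2 were without JUNBi_ETH library 2. BATF2 was 0.078 with the GC term and 0.089 with the GC term and the block.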

Other observations

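The 5 genes named because they differed most between the JUNBi_ETH libraries, with library 2 higher, were COX6A1P2 (15.0 and 183 normalized counts, 433 and 465 in Ctrli_ETH), SRP9P1 (19.4 and 105, 373 and 372), NDUFC2-KCTD14 (28.3 and 301, 78.8 and 98.5), NPIPA9 (87.4 and 329.8, 137 and 190.1) and ISG15. The 5 with library 1 higher were copies of the U2 small nuclear RNA gene with equal values. Pseudogenes, readthrough genes and gene copies share reads with their relatives. RN7SL1, the RNA of the signal recognition particle, had 472623 and 547476 normalized counts in Ctrli_ETH and 283241 and 274695 in JUNBi_ETH, and 261965 to 367125 in the other siRNA libraries under ETH.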
